A study of Mus musculus with 8 samples.

Results

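MHC class II molecules and the invariant chain were measured here in cultures of mouse CD8 T cells, through 9 genes chosen by name out of the 754 on the panel: H2-Aa, H2-Ab1, H2-Eb1, H2-Ea-ps, H2-DMa, H2-DMb1, H2-DMb2, H2-Ob and Cd74. The naming rule holds a 10th gene, the class II transactivator Ciita, which was not analysed here. RNA came from splenic CD8 T cells of C57BL/6 mice, enriched by negative selection and cultured for 48 hours in 200 µl of conditioned medium. Anti-CD3 and anti-CD28 antibodies, which mimic antigen and co-stimulation, were present at 2 µg/ml. The medium had been conditioned for 48 hours by B16F10 cells, a mouse melanoma line, in which SSBP4 was knocked out (KO medium, 4 samples) or left wild type (WT medium, 4 samples). Only the tumour cells carried the knockout; the T cells did not. The labels do not say how many knockout clones, mice or batches of medium the 4 samples of a medium stand for. The p-values therefore cover the scatter among these samples alone, which may be technical. The sources used here give no age for the mice. The nCounter Myeloid Innate Immunity panel counts barcoded probes bound to RNA, with no amplification.

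MHC class II molecules are pairs of an alpha and a beta chain that show peptides from endosomes to CD4 T cells. They are made chiefly by B cells, dendritic cells and macrophages, and many other cell types, melanoma cells among them, can make them after interferon-gamma. Mouse T cells are not usually counted among their sources. Cd74 encodes the invariant chain, which fills the peptide groove during transport. H2-DM, a pair of H2-DMa with a DM beta chain, takes the last fragment of the invariant chain out and lets peptides in, and H2-DO, whose beta chain is encoded by H2-Ob, inhibits H2-DM. The class II genes share promoter elements called the S, X and Y boxes, to which RFX, CREB-family factors and NF-Y bind, and the transactivator CIITA docks on them.

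RefSeq promoters (build GRCm38.p6, 250 bases before to 50 after a gene's start) were read for 6 of the 9 genes. Those of H2-Ab1, H2-Ea-ps and Cd74 were not analysed here. Promoters are shown because the class II genes share this promoter type and several of them moved together in the data. Capitals mark matches to the X1 box core CNNGCAAC or the Y box CTGATTGG, searched on both strands. The letters were chosen after these promoters had been read. H2-Aa and H2-Eb1 are classical class II chains, H2-Ob is the DO beta chain and H2-DMb1 a DM beta chain.
H2-Aa, chr17:34287774-34288073, minus strand: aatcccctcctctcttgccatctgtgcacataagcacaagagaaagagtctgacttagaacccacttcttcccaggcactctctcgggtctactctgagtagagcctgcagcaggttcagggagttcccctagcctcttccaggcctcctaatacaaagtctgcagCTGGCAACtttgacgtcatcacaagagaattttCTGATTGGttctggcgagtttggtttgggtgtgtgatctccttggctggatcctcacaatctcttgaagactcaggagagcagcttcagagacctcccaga
H2-Eb1, chr17:34305617-34305916, plus strand: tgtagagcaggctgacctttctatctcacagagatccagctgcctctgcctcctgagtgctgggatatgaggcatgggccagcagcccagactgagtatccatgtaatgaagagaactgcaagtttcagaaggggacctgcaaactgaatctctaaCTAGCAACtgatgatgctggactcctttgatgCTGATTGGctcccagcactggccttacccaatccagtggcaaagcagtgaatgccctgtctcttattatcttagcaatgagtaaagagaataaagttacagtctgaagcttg
H2-Ob, chr17:34238655-34238954, plus strand: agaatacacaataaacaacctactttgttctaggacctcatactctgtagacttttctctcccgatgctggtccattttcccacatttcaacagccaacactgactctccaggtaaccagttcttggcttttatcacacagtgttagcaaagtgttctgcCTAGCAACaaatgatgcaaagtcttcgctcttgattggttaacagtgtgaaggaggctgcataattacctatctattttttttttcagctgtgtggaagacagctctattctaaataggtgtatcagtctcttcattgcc
H2-DMb1, chr17:34152941-34153240, plus strand: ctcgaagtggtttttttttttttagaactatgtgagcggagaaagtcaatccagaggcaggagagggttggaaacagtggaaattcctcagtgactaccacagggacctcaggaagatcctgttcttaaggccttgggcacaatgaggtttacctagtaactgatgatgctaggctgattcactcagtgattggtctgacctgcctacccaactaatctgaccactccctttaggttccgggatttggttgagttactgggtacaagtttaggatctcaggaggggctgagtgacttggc
H2-Aa held the X1 core at -84 and the Y box at -51 from the gene start, and H2-Eb1 held them at -94 and -62. H2-Ob held the X1 core alone, at -90. The printed H2-DMb1 window held neither of these exact strings, and neither did that of H2-DMb2. Near forms were not searched. The H2-DMb1 window holds ctagtaac and gtgattgg, the H2-DMb2 window gtgattgg and the H2-Ob window ttgattgg. A window without a capital stretch is therefore not shown to lack the box. H2-DMa has 2 annotated starts, of which the first held the X1 core, on the reverse strand at -7, and the second neither. Of all 32851 promoters of this length, 11.2% held the X1 core, 4.10% the Y box and 0.490% both.

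The values are the authors' normalized values. In each sample they were whole probe counts times 1 factor, and the counts summed to 188174 to 346676 per sample. A value under 22.08, which lies 2 SD above the mean negative control, was treated as not distinct from background. The negative controls were unscaled counts, while the gene values carry the factor of their sample. The factors were 1.33, 1.16, 1.06 and 0.948 in KO medium samples 1 to 4 and 0.792, 0.905, 0.910 and 1.06 in WT medium samples 1 to 4. With a larger factor fewer counts reach 22.08, so the limit was more lenient in most KO medium samples. Of the 36 values of the 9 genes in KO medium 25 reached that level, and in WT medium 13 of 36 did. Genes whose mean over the 8 samples reached it were tested with limma on log2(value + 1), and p-values were adjusted over all 454 genes tested. Of the 9 members, 7 were tested, and H2-Ea-ps and H2-DMb2 were too low. Of the 7, 6 rose in KO medium and 0 fell, where 46.9% of all tested genes were called higher and 24.7% lower. For 4 of the 7, the mean in WT medium lay below background, so these passed the filter through KO medium alone. Neither this count, nor later counts of the 7, nor their median is support for a shift of the whole list. The median log2 difference of the 7 was 3.05, or 2.41 with those 4 genes set to their bounds. Over all genes tested it was 0.41, with no bounds applied, so the 2.41 and the 0.41 are unlike measures. The split of all calls depended on scaling: as deposited 213 genes were higher and 112 lower. It was 152 to 148 after median scaling, 166 to 136 after quantile normalization, 149 to 160 by edgeR (TMM), 156 to 152 by DESeq2, and 61 to 258 if 6 T cell genes set the scale. The median of all tested genes ran with it, at 0.021 after median scaling and -0.85 on the T cell gene scale, where that of the 7 members was 2.67 and 1.83.

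Libraries did not scatter evenly. In KO medium, samples 3 and 4 stood apart from samples 1 and 2 for most of the members, so that most results rest on values at 2 levels. All 4 samples of a medium carry the same label, and what sets the numbers apart is not stated in them. Results are therefore given also for samples 1 and 2 alone and for samples 3 and 4 alone.

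The classical chains come first. H2-Aa, the alpha chain of the class II molecule I-A, had values of 47.8, 44.0, 1364 and 1040 in KO medium samples 1 to 4, against 8.71, 9.95, 24.6 and 7.44 in WT medium samples 1 to 4. All 4 KO medium values lay above all 4 WT medium values, as for 6 of the 7 members tested and 44.3% of all tested genes, and KO medium samples 3 and 4 stood far above the other 6 samples. The counts behind the low samples were small: 36 and 38 in KO medium samples 1 and 2 and 7 to 27 in WT medium. H2-Aa rose by 4.26 on the log2 scale (SE 1.17, limma adjusted p = 0.00967), and was at least 9.98-fold higher when WT medium values were raised to background. The call was lost when samples 1 and 2, and samples 3 and 4, of each medium were averaged to 2 values (limma adjusted p = 0.0953).

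H2-Ab1, the beta chain that pairs with H2-Aa, followed the same order. Its values were 37.2, 52.1, 387 and 284 in KO medium and 9.50, 16.3, 12.7 and 18.1 in WT medium. Every KO medium sample was above every WT medium sample, and none of the WT medium values reached background. H2-Ab1 rose by 3.05 (SE 0.73, limma adjusted p = 0.00483), at least 5.31-fold, a call lost with the same averaging (limma adjusted p = 0.0693).

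H2-Eb1 encodes the beta chain of the second class II molecule, I-E. It stood at 21.3, 19.7, 273 and 233 in KO medium, against 1.00, 6.33, 6.37 and 5.31 in WT medium. Only KO medium samples 3 and 4 reached background, while the values of samples 1 and 2 rest on 16 and 17 counts. H2-Eb1 rose by 3.85 (SE 0.95, limma adjusted p = 0.00557), at least 3.19-fold, a call again lost with averaging (limma adjusted p = 0.0684). The alpha chain of I-E is not made in C57BL/6 mice, whose gene for it is defective. Its probe, H2-Ea-ps, gave 5.31, 2.32, 7.42 and 3.79 in KO medium and 6.33, 4.52, 1.82 and 6.38 in WT medium. Those 8 values lay under background, overlapped between the media, and rest on 2 to 8 counts each. H2-Ea-ps thus stayed at background in the same KO medium samples 3 and 4 in which H2-Eb1 was highest.

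**Figure D1:**
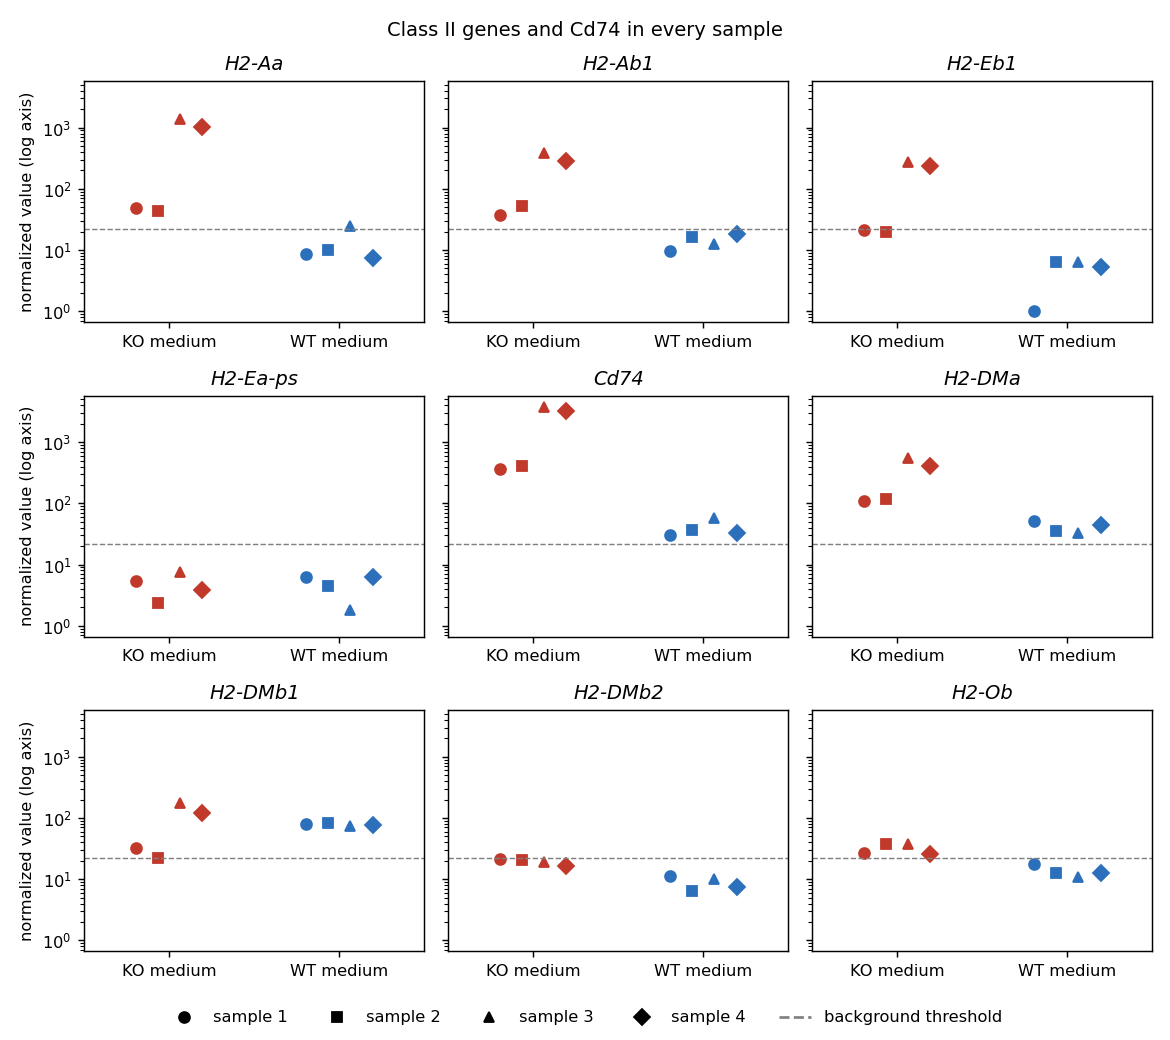
Normalized value (log axis) of the 9 genes in each of the 4 KO medium samples (left) and the 4 WT medium samples (right), 1 panel a gene, with marker shapes for sample numbers 1 to 4 and a dashed line at the background threshold of 22.08. KO medium samples 3 and 4 are the highest for 6 genes, H2-DMb2 and H2-Ob lack that split, and H2-Ea-ps stays under the line in all 8 samples.

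Cd74, the invariant chain gene, had the best counted values of the group. They were 364, 401, 3815 and 3208 in KO medium, against 30.1, 36.2, 58.2 and 32.9 in WT medium. All 8 values lay above background, and the lowest KO medium sample was above the highest WT medium sample. KO medium samples 1 and 2 had overlapping exact Poisson 95% intervals, 322 to 410 and 360 to 445, which cover counting error only. Those of samples 3 and 4 were 3692 to 3942 and 3101 to 3318. Cd74 rose by 4.89 (SE 0.79, limma adjusted p = 0.000537). It kept its call in all 24 alternative settings tried, with log2 differences from 3.49 to 6.29 and limma, edgeR or DESeq2 adjusted p up to 0.0281.

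The genes of peptide exchange did not move as a unit. H2-DMa, the DM alpha chain, was at 110, 117, 542 and 411 in KO medium and at 50.7, 35.3, 32.8 and 43.6 in WT medium. Its groups did not overlap, and all 8 values were above background. H2-DMa rose by 2.51 (SE 0.52, limma adjusted p = 0.00218), with limma adjusted p = 0.0503 after averaging to 2 values a medium.

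H2-DMb1, a DM beta chain that pairs with H2-DMa, was at 31.9, 22.0, 173 and 121 in KO medium, against 79.2, 82.4, 72.8 and 75.5 in WT medium. The 4 WT medium values lay close together, and the KO medium values lay on both sides of them. Over all samples it did not pass, at -0.31 (SE 0.61, limma adjusted p = 0.67). In samples 1 and 2 alone H2-DMb1 was lower in KO medium, by -1.57 on the log2 scale (limma adjusted p = 0.000463), and in samples 3 and 4 alone it was higher, by 0.96 (limma adjusted p = 0.00381). The sign over all samples was positive without KO medium sample 1 (0.0080) or 2 (0.18), and H2-DMb1 passed as lower with T cell genes setting the scale (-1.56, limma adjusted p = 0.00643). H2-DMb2, a second DM beta chain close in sequence to H2-DMb1, gave 21.3, 20.8, 19.1 and 16.1 in KO medium and 11.1, 6.33, 10.0 and 7.44 in WT medium. All 8 lay under background, although the groups did not overlap, and with no filter on low values H2-DMb2 was called higher, by 1.09 (limma adjusted p = 0.00466), making 7 of 9 members where 32.6% of all 754 genes were. The probe sequences were not used here, so cross-hybridisation between the DM beta genes was not tested.

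H2-Ob, the DO beta chain, which inhibits H2-DM in B cells and some dendritic cells, was at 26.6, 38.2, 38.2 and 25.6 in KO medium, against 17.4, 12.7, 10.9 and 12.8 in WT medium. Each KO medium value lay just above background and each WT medium value below it, and samples 3 and 4 were not above samples 1 and 2. The values rest on 20, 33, 36 and 27 counts in KO medium and 22, 14, 12 and 12 in WT medium. By counts, KO medium sample 1 was thus under background and below WT medium sample 1, so the split at background rests on the scaling. H2-Ob rose by 1.19 (SE 0.23, limma adjusted p = 0.00139), at least 1.41-fold. On a scale set by the 6 T cell genes it was at -0.020 (limma adjusted p = 0.967). That scaling left 5 of the 7 members higher, against 13.4% of all tested genes, and 1 lower, H2-DMb1, against 56.8%. Among those called higher, H2-Aa, H2-Ab1 and H2-Eb1 passed the filter through KO medium alone. The count is therefore no support for a shift of the whole list.

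**Figure D2:**
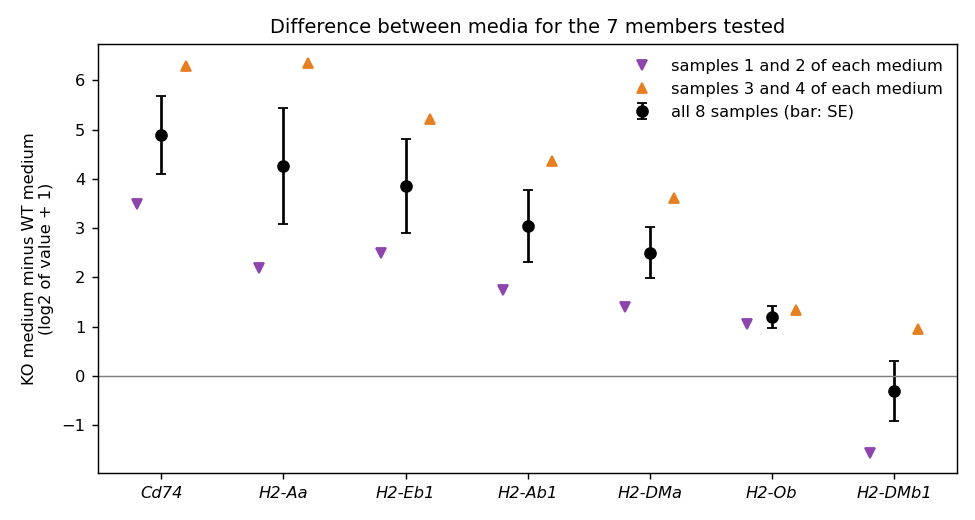
Difference between KO medium and WT medium on the log2(value + 1) scale for the 7 genes tested: black circles with SE bars for all 8 samples, downward triangles for samples 1 and 2 of each medium, upward triangles for samples 3 and 4. Cd74 is highest at 4.89, H2-Ob differs little between the sample pairs (1.05 and 1.33), and H2-DMb1 lies below 0 in samples 1 and 2 (-1.57) and above 0 in samples 3 and 4 (0.96).

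The 6 genes that rose were called higher in either pair of sample numbers, though by unequal amounts. In samples 1 and 2 alone, where 45.6% of all tested genes were called higher, 6 of the 7 members were, with Cd74 up by 3.49, H2-Eb1 by 2.49, H2-Aa by 2.18, H2-Ab1 by 1.74, H2-DMa by 1.40 and H2-Ob by 1.05 (limma adjusted p of 0.0175 or less). The 7th, H2-DMb1, was lower there, as were 30.4% of all tested genes. Every H2-Eb1 value of samples 1 and 2 lay under background, at 21.3 and 19.7 in KO medium and 1.00 and 6.33 in WT medium. H2-Eb1 met the filter, set over all 8 samples, through KO medium samples 3 and 4. Its difference in samples 1 and 2 therefore cannot be told apart from background. In samples 3 and 4 alone all 7 were called higher, where 53.1% of all tested genes were, with H2-Aa up by 6.34, Cd74 by 6.29, H2-Eb1 by 5.21, H2-Ab1 by 4.36, H2-DMa by 3.61 and H2-Ob by 1.33 (limma adjusted p of 0.013 or less). Each of these fits has 2 samples a medium. With each pair averaged to 1 value, 2 of the 7 members were called higher, Cd74 and H2-Ob, against 31.7% of all tested genes. The order of the genes by size thus changed, with Cd74 first in samples 1 and 2 and H2-Aa first in samples 3 and 4.

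Within KO medium, the step between the sample pairs was among the widest on the panel. H2-Aa was higher in samples 3 and 4 than in samples 1 and 2 by 4.67 on the log2 scale, which put it in place 1 of the 454 genes tested. H2-Eb1 was in place 3 (3.56), Cd74 in place 4 (3.19), H2-Ab1 in place 7 (2.89), H2-DMb1 in place 10 (2.41) and H2-DMa in place 18 (2.05). H2-Ob was in place 342, at -0.026. Over all 454 genes the median step was 0.24, and 13.2% of genes were higher in samples 3 and 4 by more than 2-fold. These places describe the values and were not tested.

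Within WT medium, the same 6 genes showed no step of that size. H2-Eb1 differed by 0.83 between the sample pairs at values under background, H2-Aa by 0.51, Cd74 by 0.40, H2-Ab1 by 0.27, H2-DMb1 by -0.12 and H2-DMa by -0.16. The median over all tested genes was 0.0040. The summed level of the 9 members was 666 and 717 in KO medium samples 1 and 2 and 6619 and 5344 in KO medium samples 3 and 4, against 209 to 230 in WT medium. Genes of MHC class I and its peptide supply, listed for comparison, had a median step of 1.55 in KO medium and 0.30 in WT medium over 11 tested genes.

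**Figure D3:**
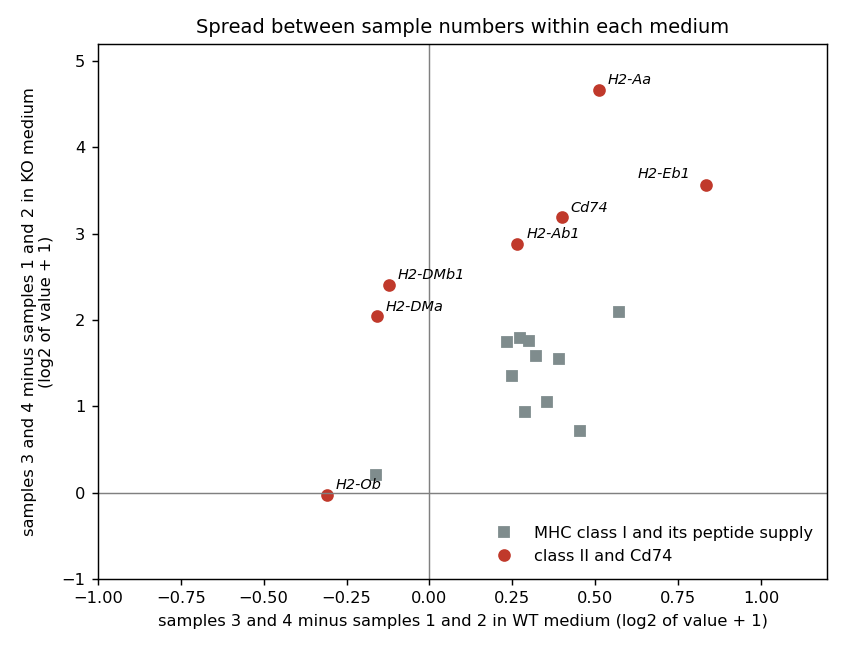
Mean of samples 3 and 4 minus mean of samples 1 and 2 on the log2(value + 1) scale, within KO medium (vertical axis) and within WT medium (horizontal axis), for the 7 class II genes tested (circles) and the 11 class I genes tested (squares). H2-Aa is highest in KO medium at 4.67, H2-Ob lies at -0.026, and all 7 circles lie between -0.31 and 0.83 in WT medium.

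Genes on the route from interferon-gamma to class II were set beside the members, since that cytokine induces CIITA. Ifngr1, a chain of the interferon-gamma receptor, rose by 0.87 (SE 0.21, limma adjusted p = 0.00462). On the T cell gene scale it was at -0.40 with no call. Irf1, Irf2 and Socs1 did not pass. Irf1, a factor that helps to induce CIITA, was at 2025, 2324, 5249 and 4678 in KO medium and 3806, 4185, 3632 and 3973 in WT medium. Like those of H2-DMb1, its KO medium values lay on both sides of the WT medium values. Ifng itself was too low to be tested, at 6.64, 6.95, 27.6 and 19.0 in KO medium and 4.75, 1.81, 46.4 and 32.9 in WT medium. Of these 8 values, those of KO medium sample 3 and WT medium samples 3 and 4 reached background.

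Transcription factors of antigen-presenting cells were mixed. Of 7 tested, 3 rose, 2 fell and 2 did not pass, with a median of 0.27, where 46.9% of all tested genes were called higher and 24.7% lower. Irf8, which directs the development of dendritic cells and B cells, was at 53.1, 71.8, 373 and 285 in KO medium and 5.54, 8.14, 14.6 and 4.25 in WT medium. Its groups did not overlap, it was under background in all WT medium samples, and it rose by 4.10 (SE 0.66, limma adjusted p = 0.000529), at least 6.21-fold. Id2, an inhibitor of E proteins needed by dendritic cells and by effector T cells, rose by 2.79 (SE 0.31, limma adjusted p = 5.01e-05), and Ikzf1, the lymphoid factor Ikaros, by 1.22, although scaled to T cell genes Ikzf1 was at -0.041. The factors that fell were Klf4, by 4.74, and Cebpb, by 1.62 on the log2 scale.

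Of the proteases that cut antigen and the invariant chain in endosomes, 4 of 16 listed were measured and 3 tested. Ctss, cathepsin S, which trims the invariant chain in B cells and dendritic cells, rose by 1.42 (SE 0.22, limma adjusted p = 0.000417). It averaged 100.2 ± 30.3 in KO medium and 36.1 ± 5.63 in WT medium (SD, n = 4 each). Ctsd, cathepsin D, rose by 1.56 (SE 0.068, limma adjusted p = 1.17e-07). Scaled to T cell genes, Ctss and Ctsd were at 0.17 and 0.29 with no call. Ctsl, cathepsin L, which does the same trimming in thymic epithelium, fell by 1.16 on the log2 scale (SE 0.099, limma adjusted p = 9.33e-06). None of the 3 showed the step of the class II chains, and Ctsd was at 6899, 6360, 6074 and 6463 in KO medium against 2139, 2248, 2184 and 2151 in WT medium.

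Partners that bind class II or CD74 were higher in KO medium in the deposited scaling. All 4 tested of 8 listed rose, with a median of 1.06. Of all genes tested, 46.9% were called higher, and the median over all was 0.41. Mif, a cytokine that signals through CD74, averaged 11600 ± 531 in KO medium and 6836 ± 1183 in WT medium (SD, n = 4 each), up by 0.78 (SE 0.13, limma adjusted p = 0.000549). Cd44, the signalling partner of CD74, rose by 1.05 (SE 0.22, limma adjusted p = 0.00242), and Cxcr4, which can pair with CD74 as a Mif receptor, by 1.81 (SE 0.29, limma adjusted p = 0.000537), at least 2.63-fold. Lag3, an inhibitory receptor for class II, rose by 1.08 (SE 0.42, limma adjusted p = 0.0440). The call of Lag3 was lost without KO medium sample 2, 3 or 4 or WT medium sample 1, 2 or 4 (limma adjusted p up to 0.117). Scaled to T cell genes, Mif, Cd44 and Lag3 were at -0.49, -0.18 and -0.13 and Cxcr4 at 0.58, with no call, and Mif also lost its call with median, edgeR and DESeq2 scaling.

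Co-stimulatory surface proteins of antigen-presenting cells were low or mixed. Of 11 measured, 4 lay under background in all 8 samples, among them Cd86, Cd40 and Cd83. Cd80 averaged 18.1 ± 7.60 in KO medium and 10.9 ± 4.48 in WT medium (SD, n = 4 each) and was not tested. Of 6 tested, Tnfsf9 and Icam1 rose by 0.53 and 0.81 (limma adjusted p = 0.0191 and 0.0322), Cd274 fell by 0.92 on the log2 scale (limma adjusted p = 0.0342) and 3 did not pass, with a median of 0.35. Over all tested genes 46.9% were called higher and 24.7% lower. Scaled to T cell genes Tnfsf9 and Icam1 were at -0.72 and -0.43, and both lost their calls with median, quantile, positive control, edgeR and DESeq2 scaling (adjusted p of 0.122 or more). All 3 calls were lost with samples 1 and 2, and samples 3 and 4, averaged (limma adjusted p = 0.119 for Tnfsf9, 0.0953 for Icam1 and 0.171 for Cd274), and each depended on single samples: that of Tnfsf9 was lost without WT medium sample 3 (limma adjusted p = 0.0534), that of Icam1 without KO medium sample 2, 3 or 4 or WT medium sample 2 or 4 (up to 0.0815), and that of Cd274 without KO medium sample 1 or 2 or WT medium sample 2, 3 or 4 (up to 0.0961).

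MHC class I and its peptide supply were mixed. Of 11 tested genes 1 rose, 3 fell and 7 did not pass, with a median of 0.17, where 46.9% of all tested genes were called higher and 24.7% lower. H2-T23, a nonclassical class I chain, rose by 3.19 (SE 0.55, limma adjusted p = 0.000726), at 331, 435, 1890 and 1399 in KO medium and 67.3, 72.4, 125 and 87.1 in WT medium. The genes that fell were H2-M3, by 1.97, Psmb8, by 1.53, and Calr, by 0.87 on the log2 scale. H2-K1, a classical class I chain, was at 5925, 6162, 23068 and 17728 in KO medium and 8453, 9673, 11414 and 9899 in WT medium, so its groups overlapped as those of H2-DMb1 did (0.17, SE 0.44, limma adjusted p = 0.741). The sign of H2-K1 turned negative under 4 other scalings: to the median, by TMM, by DESeq2 and to T cell genes.

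The genes whose profile lay nearest to each member were sought among all tested genes, by the root mean square distance between log2 profiles over the 8 samples, each centred on its own mean. For Cd74 they were Irf8 at 0.54, Fcgr4 at 0.60 and C4a at 0.76, where the median gene was at 2.49. H2-Aa had the same 3, Irf8 at 0.83, C4a at 0.92 and Fcgr4 at 0.95, and lay at 0.65 from Cd74. Fcgr4 is an activating Fc receptor of macrophages, monocytes and neutrophils, and one of the macrophage and monocyte markers described with the other markers, and C4a is a complement gene. Fcgr4 was at 61.1, 56.7, 508 and 444 in KO medium and 2.38, 1.00, 9.10 and 1.06 in WT medium, and C4a at 170, 192, 1535 and 1164 against 7.92, 25.3, 68.2 and 46.8. H2-Eb1 was nearest to C4a (0.48), Irf8 (0.70) and H2-T23 (0.78). H2-Ab1 had H2-T23 (0.42) and Mx1 (0.67), an interferon-induced antiviral gene, among its 3 nearest, and H2-DMa had Mx1 (0.33) and Tuba1a (0.45).

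H2-DMb1 and H2-Ob had other neighbours. H2-DMb1 was nearest to Isg15 (0.335), an interferon-induced gene, S100a4 (0.36) and H2-K1 (0.39), of which each was lower in KO medium samples 1 and 2 than in any WT medium sample. H2-Ob was nearest to Adamts12 (0.18), Acad10 (0.19) and Ercc1 (0.20), and its closest class II member, H2-DMa, lay at 0.99, farther than the median gene at 0.68. The distances describe 8 samples that share libraries and scaling, and no test was made of them.

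**Figure D4:**
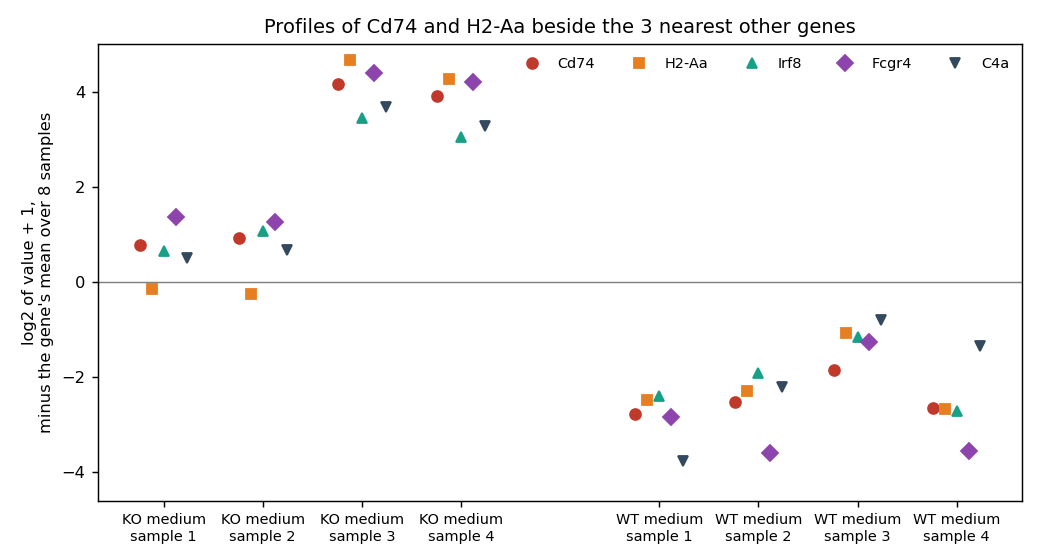
Log2(value + 1) minus each gene's mean over the 8 samples, for Cd74 and H2-Aa and their 3 nearest other genes, Irf8, Fcgr4 and C4a, in KO medium samples 1 to 4 (left) and WT medium samples 1 to 4 (right). The 5 genes are highest in KO medium samples 3 and 4 and lie below 0 in all 4 WT medium samples.

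Markers of cells that carry class II were read in the same samples. In bulk RNA, fewer cells of a type and less RNA per cell cannot be told apart. Of 4 B cell markers measured, 2 lay under background in all samples and 0 were high enough to be tested, and their summed level was 36.1 to 60.2 in KO medium and 45.1 to 51.0 in WT medium. In KO medium samples 1 to 4 that sum was 57.1, 60.2, 54.1 and 36.1. The leading B cell markers were Cxcr5, Ms4a1 and Btk. Of 8 dendritic cell markers, 7 lay under background in all samples, with Xcr1, Clec9a, Flt3 and Itgax at 1.00 to 10.6, and their sum was 45.2 to 53.0 in KO medium and 32.8 to 46.7 in WT medium. Among 20 macrophage and monocyte markers 12 lay under background in all samples, Adgre1 and Csf1r among them. The sum of these 20 was 890 to 2066 in KO medium and 793 to 1967 in WT medium, most of it from Ly6c1, which T cells also express, Cd68 and Ccr2. Of the 6 of them tested, 1 rose, 1 fell and 4 did not pass, where 46.9% of all tested genes were called higher and 24.7% lower. Cd68 fell by 0.47 on the log2 scale (limma adjusted p = 0.0411), a call lost without KO medium sample 1 or 3 or WT medium sample 2, 3 or 4 (up to 0.103). The one that rose was Fcgr4, the Fc receptor gene whose profile lay near that of Cd74, by 5.61 (SE 0.87, limma adjusted p = 0.000389), at least 7.31-fold. Its part in the class II values was not tested. No marker is listed at 0, because the lowest deposited value is 1.

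Genes of the T cell and stromal lists moved with the medium. Genes of the T cell list (6 measured) summed to 1543 to 2308 in KO medium and 715 to 1052 in WT medium. Fyn, Ptprc and Cd247 were the highest in level, and whether the signal came from T cells alone was not tested. All 6 rose, where 46.9% of all tested genes were called higher. Scaling to these genes removes that shift by construction. Cd3e and Cd8a were not analysed here. Stromal genes (10 measured) summed to 607 to 954 in KO medium and 9080 to 10158 in WT medium, with Cd34 at 2.12 to 6.95 in KO medium and 4503 to 5069 in WT medium. Melanocyte markers were not analysed here. Of the neutrophil markers 10 of 11 lay under background in all samples. Klrk1 was the only gene of the NK cell list measured. It was at 39.9, 44.0, 213 and 189 in KO medium and 20.6, 28.1, 155 and 77.6 in WT medium, higher in samples 3 and 4 in both media. The difference of Klrk1 between the media did not pass (0.82, limma adjusted p = 0.37). The part of the T cell, stromal and Klrk1 differences in the class II values was not tested, and which cells held the class II RNA was not determined.

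**Figure D5:**
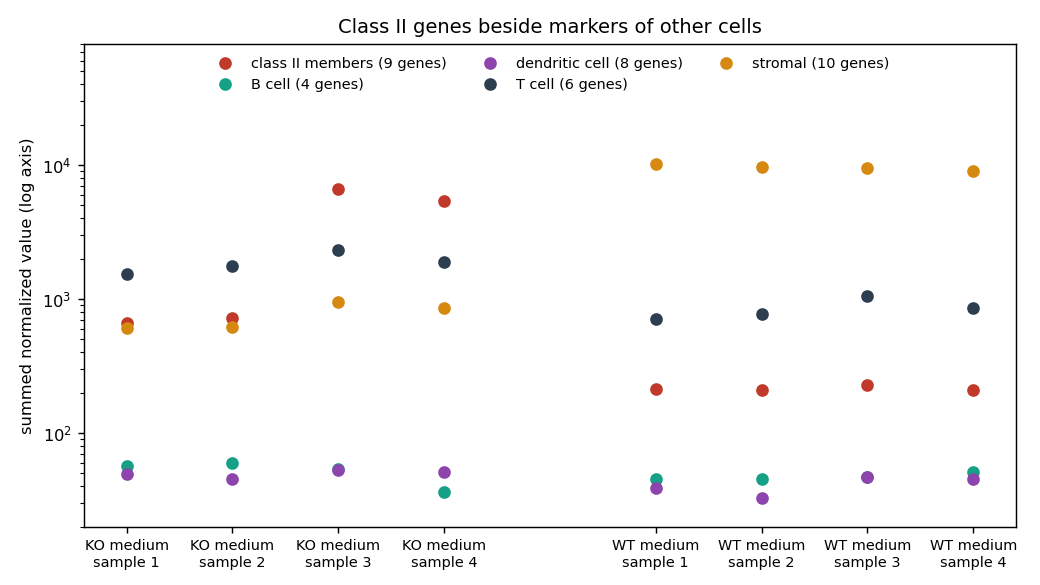
Summed normalized value (log axis) of the 9 class II genes and of the measured markers of B cells, dendritic cells, T cells and stromal cells in KO medium samples 1 to 4 (left) and WT medium samples 1 to 4 (right). The class II sum reaches 6619 in KO medium sample 3, while the B cell and dendritic cell sums stay between 32.8 and 60.2 in all 8 samples.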

How the data were processed

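The authors deposited 1 table of signal values for 754 genes, 6 positive and 8 negative control probes in 8 samples; the sources used here do not give the software or normalization. Gene values in the deposited signal table were whole multiples of 1 factor a sample (0.792 to 1.33) for 99.87% to 100% of values (each at most 0.1 step from a whole number), so whole counts were recovered; lower values are listed as 1. Fitting used limma 3.58.1 in R 4.3.3 (lmFit, eBayes with trend) on log2(value + 1), medium as the only term, two-sided, with Benjamini-Hochberg adjustment over 454 genes with a mean of at least 22.08, the mean plus 2 SD of the 8 negative controls. Those controls were on the count scale, without the factor that the gene values carry. Log2 differences understate the change of low genes. A fold written as at least N compares means with WT medium values raised to 22.08. edgeR 4.0.16 and DESeq2 1.42.0 on recovered counts, other scalings, filters, pseudocounts and sample subsets were alternatives. The fit was tested on simulated data.

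Named genes are all members, the 3 smallest p of each pathway list, the 3 highest of each marker list and the 3 nearest profiles of each tested member, plus genes needed to name a count of 5 or fewer. Ifng, Irf1, Cd80 and the low defining markers of antigen-presenting cells were added after their values were seen. A few genes that the rule names are not reported here. Members, lists and rules were chosen with earlier results of these data known, and the motifs after the promoters were read. Sample numbers 1 to 4 occur in both media. Deviations from the group means correlated at 0.197 to 0.465 between same-numbered samples across genes, over 0.1 in each pair, so the sample number was added as a block in an alternative, while the reported fit has none. Different numbers correlated too, at 0.396 and 0.267 between samples 1 and 2 and at 0.424 and 0.255 between samples 3 and 4. What the numbers mark cannot be told from these correlations.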

Additional observations from a re-analysis of the deposited data

Results flagged for a closer look

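H2-Aa in WT medium sample 3, at 24.6, stood apart from the other 3 WT medium samples, with a gap to the nearest of them that took 0.853 of the group's range. It was the only such sample among 18 sets of 4 values checked (9 genes in 2 media), where chance gives about 1 in 20. The value rests on 27 counts and lies near the background threshold of 22.08. Leaving that sample out gave a log2 difference of 4.61 (limma adjusted p = 0.0137).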

How the results depend on the processing

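Of 24 alternatives, averaging samples 1 and 2 and samples 3 and 4 of each medium left 2 members called higher, Cd74 and H2-Ob, with H2-Aa, H2-Ab1, H2-Eb1 and H2-DMa at unchanged log2 differences of 4.26, 3.05, 3.85 and 2.51 but without a call (limma adjusted p = 0.0953, 0.0693, 0.0684 and 0.0503); that fit has fewer values. With T cell gene scaling, 5 members were called higher and 1 lower, H2-DMb1 at -1.56, H2-Ob was at -0.020, and 61 genes were called higher and 258 lower, against 213 and 112. In samples 1 and 2 alone 1 member was lower, H2-DMb1 at -1.57, and in samples 3 and 4 alone it was at 0.96. Requiring 4 samples at background dropped H2-Eb1 from the test, and no filter added H2-DMb2. With 1 sample left out the 6 called members kept their calls (limma adjusted p up to 0.0292), with log2 differences of 3.42 to 5.06 for H2-Aa, 2.50 to 3.61 for H2-Ab1, 3.22 to 4.46 for H2-Eb1, 2.10 to 2.86 for H2-DMa, 1.10 to 1.32 for H2-Ob, 4.32 to 5.45 for Cd74 and -0.79 to 0.18 for H2-DMb1. Those of H2-DMb1 above 0 were 0.0080 and 0.18, without KO medium sample 1 or 2. The fit with the sample number as a replicate block changed no call of a member (H2-Aa at 4.26, limma adjusted p = 0.00301).

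Among the 47 other genes named and tested, 20 changed sign in some alternative, and of the 35 called, 18 lost the call in some alternative. Those that changed sign with T cell gene scaling were Ikzf1 (-0.041), Cd247 (-0.048), Ercc1 (-0.097), Lag3 (-0.13), Cd44 (-0.18), Acad10 (-0.20), Fyn (-0.39), Ifngr1 (-0.40), Klrk1 (-0.43), Icam1 (-0.43), Mif (-0.49), Tnfsf9 (-0.72), Psmb9 (-0.84), Tap1 (-1.09) and H2-K1 (-1.10). H2-K1 and Tap1 were also below 0 with median scaling (-0.22 and -0.21), TMM (-0.12 and -0.25) and DESeq2 (-0.054 and -0.18). In samples 1 and 2 alone H2-K1, Tap1 and Psmb9 were at -0.58, -0.17 and -0.15, and in samples 3 and 4 alone Socs1, Irf2, Irf1, S100a4 and Isg15 were at 0.026, 0.086, 0.38, 0.42 and 0.54. With 1 sample left out, signs turned within the ranges of Isg15 (-0.67 to 0.16), Socs1 (-0.29 to 0.18), H2-K1 (-0.18 to 0.47) and Tap1 (-0.032 to 0.38). The causes were not tested. Low counts limit H2-Eb1, H2-Ob, H2-DMb2 and H2-Ea-ps.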

Other observations

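Of the 9 members, 8 lie in 1 stretch of chromosome 17 in the RefSeq annotation of GRCm38.p6, and Cd74 lies on another chromosome. The 12 measured genes of that stretch stand in the order H2-DMa, H2-DMb2, H2-DMb1, Psmb9, Tap1, Psmb8, Tap2, H2-Ob, H2-Ab1, H2-Aa, H2-Eb1 and H2-Ea-ps, so that 4 class I supply genes sit between the DM genes and the classical class II chains. From H2-DMa to Tap2 the genes differed in direction. H2-DMa was higher in KO medium by 2.51 on the log2 scale, H2-DMb1 was at -0.31 without a call, Psmb9 and Tap1 were at 0.43 and 0.18 without a call, Psmb8, an immunoproteasome subunit, fell by 1.53 (limma adjusted p = 0.0123), and Tap2 was at -0.41 without a call. H2-Ob, H2-Ab1, H2-Aa and H2-Eb1, next to each other, all rose, by 1.19, 3.05, 4.26 and 3.85. The call of Psmb8 was lost with samples 1 and 2 and samples 3 and 4 averaged (limma adjusted p = 0.111).

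The step between the sample pairs within KO medium ran through the same stretch. It was 1.55 for Psmb9, 1.05 for Tap1, 1.75 for Psmb8 and 0.93 for Tap2 on the log2 scale, beside 2.05 for H2-DMa, 2.41 for H2-DMb1, 2.89 for H2-Ab1, 4.67 for H2-Aa and 3.56 for H2-Eb1. H2-Ob and H2-DMb2, at -0.026 and -0.25, had no such step, although they stand among genes that did.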
